A study of Mus musculus with 6 samples.

Results

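Sca-1, the product of Ly6a, and 9 related genes named Ly6c1, Ly6c2, Ly6d, Ly6e, Ly6f, Ly6g, Ly6i, Ly6k and Ly6g5b were followed through an shRNA knockdown of Sca-1 in a mammary tumor cell line. Every probe set whose gene symbol on the array's platform contains one of these 10 names was taken, including probe sets assigned to several genes, and the Ly6a probe set was named through the list of changed genes published with the data. That gave 9 probe sets of the 45101 on the array, for 8 of the 10 genes, whose identifiers stand in the plot of intensities by array. Ly6c1 and Ly6c2 share their only probe set, Ly6e and Ly6k have 2 each, and no probe set is listed for Ly6g or Ly6g5b. The cells were Wnt1-YL, a line grown out of mammary tumors of MMTV-Wnt1 transgenic mice, in which a mammary promoter drives Wnt1. One population carried a lentiviral shRNA against luciferase (shLuc, the control) and the other an shRNA against Sca-1 (shSca-1), both selected in puromycin and cultured in the same medium with serum, insulin and EGF, with 3 arrays of each. All 6 arrays are labelled as 1 cell line, and independent transductions are not described. The labels call the arrays biological replicates but do not state that they came from separate cultures, so each p-value below measures the spread between these arrays, which may be technical.

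Ly6 proteins are small, cysteine-rich proteins, most of which are held at the outer cell surface by a glycosylphosphatidylinositol (GPI) anchor and gather in lipid rafts. Many of their genes lie side by side in a cluster on mouse chromosome 15 and arose by duplication, so the transcripts resemble each other and a probe set, or an shRNA, can in principle meet several of them. Sca-1 is a standard surface marker of mouse hematopoietic and other stem and progenitor cells, and Ly6a, Ly6c and Ly6e are known to be induced by interferon. The comparison addresses how far the loss of signal reached from Ly6a into its relatives.

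Intensities are model values on a linear scale, with an array median between 37.3 and 40.7. shLuc replicate 3 stood apart from the other arrays. Its highest correlation with any other array over all probe sets was 0.924, against 0.957 to 0.963 for the others. All 8 luminal epithelial markers measured, Krt8 and Krt18 among them, summed to 18046 on that array and to between 273 and 339 on the other 5. The 6 basal markers summed to 13559 there and to between 23369 and 27813 elsewhere, with Krt5, a basal keratin, at 3141 against 9576 to 11431. Krt14, the partner keratin of Krt5, lay between 7779 and 11849 on all 6 arrays, so basal keratin was present on each. Krt5, Krt14, Trp63 and Cdh3 were lowest on shLuc replicate 3 of all 6 arrays. Krt17 and Krt15 were lower there than on the other shLuc arrays but above all shSca-1 arrays. Krt17 was 1454 there against 825 to 1171 on shSca-1 arrays, and Krt15 17.8 against 4.06 to 6.25. These values leave in doubt whether the array labelled shLuc replicate 3 holds the same cells as the other shLuc arrays, which was not tested. The members' results are therefore given with shLuc replicate 3 and without it.

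Ly6a was far lower in shSca-1 cells. Its intensity was 7646, 7362 and 2843 on shLuc replicates 1, 2 and 3 and 285, 314 and 306 on shSca-1 replicates 1, 2 and 3. The groups did not overlap, the 3 shSca-1 arrays lay close together, and shLuc replicate 3 held 37.9% of the mean of the other 2 shLuc arrays. The means were 5950 ± 2695 and 302 ± 15.0 (SD, n = 3 each), an 18.0-fold difference of geometric means. In limma the log2 fold change was -4.17 (standard error 0.36, 95% interval -5.03 to -3.32) with an adjusted p of 0.051 over 45037 probe sets, just above 0.05. Without shLuc replicate 3 the log2 fold change was -4.64 (standard error 0.08, interval -4.82 to -4.46, adjusted p = 5.2e-07 from limma), or 24.9-fold. The mean signal left in shSca-1 cells was 4.02% of that on shLuc replicates 1 and 2. An exact permutation test over the 6 arrays gave p = 0.1, the smallest that 3 arrays against 3 allow. In bulk RNA, fewer cells with the transcript and less transcript per cell cannot be told apart.

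**Figure D1:**
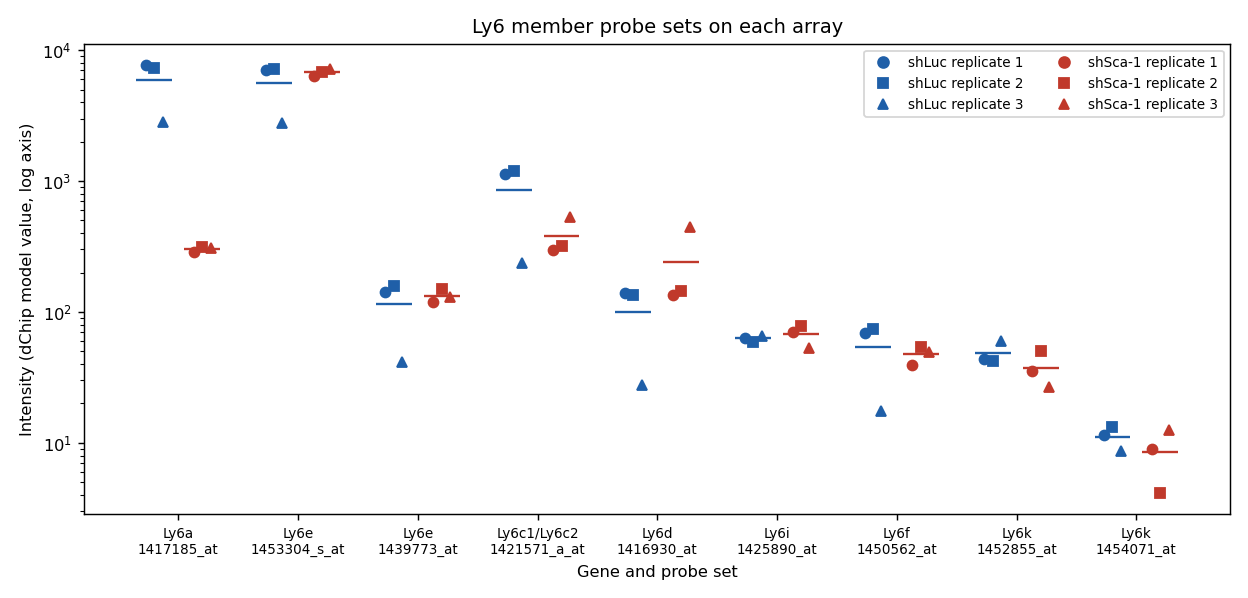
Intensity (log axis) of the 9 Ly6 member probe sets on each of the 6 arrays, control arrays blue and knockdown arrays red, a marker shape for each replicate number and horizontal lines at the arithmetic group means. Ly6a separates the groups, from 285 to 314 in shSca-1 cells against 2843 to 7646 in shLuc cells, and shLuc replicate 3 (blue triangle) is the lowest shLuc array for 7 of the 9 probe sets.

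The plot of intensities by array shows another bright probe set that was lower in shSca-1 cells than on 2 of the 3 shLuc arrays, the one shared by Ly6c1 and Ly6c2. These genes encode the Ly6C antigens, best known as markers of inflammatory monocytes and of some T cells and endothelial cells. Its intensity was 1133, 1191 and 236 on the shLuc arrays and 297, 318 and 535 on the shSca-1 arrays. shLuc replicate 3 was the lowest of all 6 arrays, at 20.3% of the mean of the other shLuc arrays, so the groups overlapped. shSca-1 replicate 3 was 1.74 times the mean of the other shSca-1 arrays. On 6 arrays the log2 fold change was -0.88 (standard error 0.62, adjusted p = 0.71 from limma; exact permutation p = 0.4). Without shLuc replicate 3 it was -1.65 (standard error 0.23, 95% interval -2.18 to -1.12, adjusted p = 0.0145 from limma), a 3.14-fold lower signal that left 33.0% of the mean on shLuc replicates 1 and 2. This call rests on leaving out that 1 array, and the probe set does not say which of the genes gave the signal.

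Because Ly6C is a leukocyte antigen, markers of leukocytes were read on the same arrays. The 11 of 12 markers measured summed to between 472 and 727 on shLuc arrays and between 506 and 649 on shSca-1 arrays. Ptprc, which encodes the pan-leukocyte antigen CD45, lay between 3.98 and 20.5 on all 6 arrays and Itgam, the myeloid integrin CD11b, at 22.4 or less, both below the array medians. The macrophage markers Csf1r (105 to 143), Adgre1 (111 to 164) and Lyz2 (42.4 to 65.5) and the granulocyte enzyme Mpo (67.7 to 86.8) lay above the medians on all 6 arrays, and none of them differed between arrays as widely as Ly6c did. Cd68, a lysosomal protein of macrophages that other cells also make, did. It was 311, 298 and 32.9 on the shLuc arrays and 53.9, 77.6 and 212 on the shSca-1 arrays, so it was high on shLuc replicates 1 and 2 and low on shLuc replicate 3, as Ly6c was. The remaining leukocyte markers measured, Itgb2, Tyrobp, Elane and Cd3e, were at 20.3 or less on every array. The basal marker Trp63, picked after the values were seen, also was high on shLuc replicates 1 and 2 and lowest on shLuc replicate 3. It was 2950, 2870 and 939 on the shLuc arrays and 1531, 1464 and 2898 on the shSca-1 arrays. The part of Cd68-bearing cells in the Ly6c result was not tested.

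The start regions of Ly6c1 and Ly6c2, the genes that share 1 probe set, are printed for comparison. They do not show what that probe set reads, as its probe sequences were not available. RefSeq windows of 300 bases around the transcription start (GRCm38.p6, sense strand of the gene) were found for 5 of the 10 genes. These were Ly6c1, Ly6c2, Ly6g and Ly6f of the chromosome 15 cluster and Ly6g5b, which lies on chromosome 17. Capitals mark the longest run that the windows of Ly6c1 and Ly6c2 have in common.
Ly6c1, chr15:75048788-75049087, minus strand: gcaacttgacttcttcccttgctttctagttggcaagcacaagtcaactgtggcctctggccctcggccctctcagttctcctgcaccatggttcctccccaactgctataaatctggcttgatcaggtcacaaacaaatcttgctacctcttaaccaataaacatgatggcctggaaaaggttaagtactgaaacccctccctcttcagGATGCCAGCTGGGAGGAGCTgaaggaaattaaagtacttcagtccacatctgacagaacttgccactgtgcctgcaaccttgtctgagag
Ly6c2, chr15:75111922-75112221, minus strand: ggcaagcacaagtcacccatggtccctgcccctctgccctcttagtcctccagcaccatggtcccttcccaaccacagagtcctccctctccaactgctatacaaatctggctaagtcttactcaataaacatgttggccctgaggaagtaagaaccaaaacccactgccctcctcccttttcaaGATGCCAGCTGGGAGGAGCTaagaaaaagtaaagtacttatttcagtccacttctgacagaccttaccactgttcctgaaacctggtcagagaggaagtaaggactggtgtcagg
The capital run is 20 bases long and lies at positions 211 to 230 of the Ly6c1 window and 186 to 205 of the Ly6c2 window. On either strand it occurs in 3 of 27025 promoter windows (0.011%), these 2 among them. In the best local alignment, Ly6c1 and Ly6c2 were identical at 73.8% of 282 columns. Ly6f had a higher share identical, over shorter alignments, with Ly6g (87.4% of 230 columns) and Ly6c1 (86.7% of 210 columns). Shares over alignments of different length do not rank how close the windows are. All 4 cluster windows hold the run CAATAAACATG, found on either strand in 13 of the 27025 windows (0.048%). The core of an interferon-stimulated response element, a pair of GAAA words with 2 bases of any kind between them, was in none of the 4, against 3.489% of all windows on either strand. The search describes letters in the windows only.

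Ly6e encodes thymic shared antigen 1, also called Sca-2, and did not follow Ly6a. Its bright probe set was 7023, 7127 and 2768 on the shLuc arrays and 6378, 6749 and 7205 on the shSca-1 arrays. Apart from shLuc replicate 3, which was lowest, the 5 arrays lay within a narrow band. The log2 fold change was 0.39 (standard error 0.35, 95% interval -0.44 to 1.21, adjusted p = 0.78 from limma) and, without shLuc replicate 3, -0.06 (standard error 0.07, interval -0.22 to 0.09, adjusted p = 0.73 from limma). A decrease of more than 0.22 on the log2 scale therefore lies outside that second interval. The dimmer Ly6e probe set was 142, 159 and 41.6 on shLuc arrays and 119, 149 and 130 on shSca-1 arrays, with the same low array and overlapping groups. Its log2 fold change was 0.43 (adjusted p = 0.83 from limma), and -0.19 without shLuc replicate 3 (adjusted p = 0.61 from limma).

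Ly6d, which encodes a surface protein of keratinocytes and of early B-lymphoid cells, had the highest positive change of the 9 probe sets, but it rested on 1 array of each group. Its probe set read 139, 134 and 27.7 on shLuc arrays against 135, 144 and 447 on shSca-1 arrays. Replicates 1 and 2 of both groups lay between 134 and 144, shLuc replicate 3 was the lowest array and shSca-1 replicate 3 the highest. limma gave a log2 fold change of 1.36 with a 95% interval of -0.36 to 3.07 and, without shLuc replicate 3, of 0.59 with an interval of -0.49 to 1.67, with adjusted p of 0.63 and 0.61.

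Ly6f, Ly6i and Ly6k were dim, and their groups overlapped. Ly6f was 69.6, 74.5 and 17.5 on the shLuc arrays and 39.4, 54.0 and 49.0 on the shSca-1 arrays. shLuc replicate 3 was again lowest, and the 3 shSca-1 arrays were below the other 2 shLuc arrays. Its log2 fold change was 0.07 on 6 arrays (limma adjusted p = 0.98) and -0.61 with that array left out (standard error 0.22, interval -1.13 to -0.09, limma adjusted p = 0.22). Ly6i lay between 59.2 and 65.5 on shLuc arrays and between 53.2 and 78.3 on shSca-1 arrays, and its log2 fold change was 0.09 on 6 arrays and 0.12 with that array left out (limma adjusted p = 0.93 and 0.86). It was at 106.6% of the other shLuc arrays on shLuc replicate 3, unlike Ly6f. Ly6k encodes a GPI-anchored protein of testis that sperm migration requires. Its probe sets ranged from 26.7 to 59.6 and from 4.14 to 13.2 over the 6 arrays, with log2 fold changes of -0.40 and -0.50 (adjusted p = 0.74 and 0.81 from limma), and of -0.24 and -0.67 with that array left out (adjusted p = 0.78 and 0.66 from limma). Neither Ly6k probe set reached 64 on any array, and the second stayed below the array medians.

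**Figure D2:**
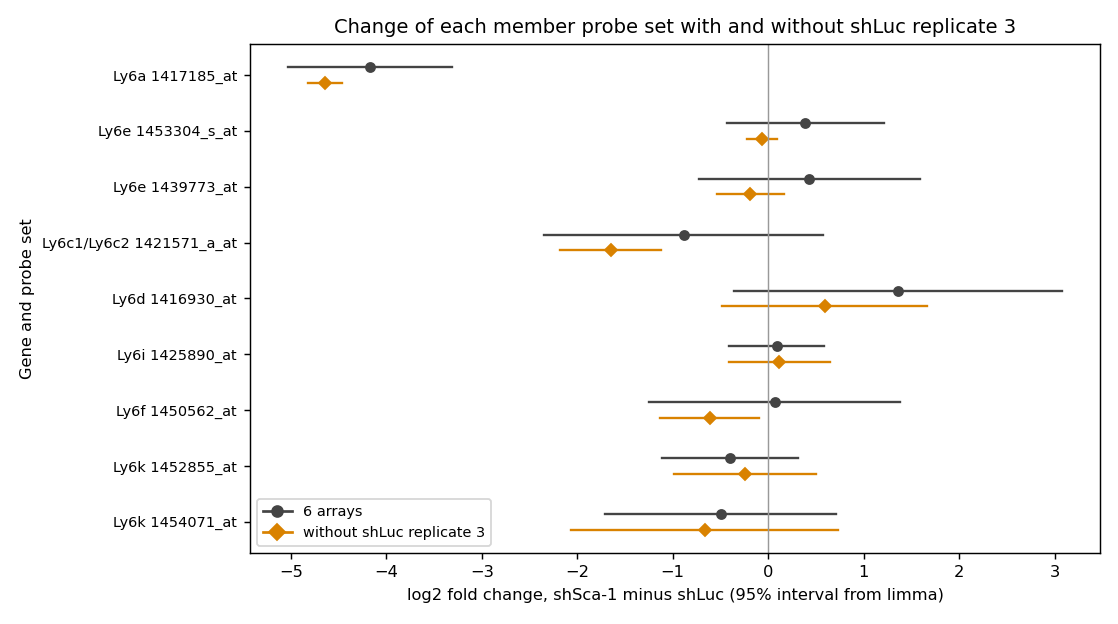
Change of the 9 member probe sets on the log2 scale, knockdown minus control, from limma with 95% intervals, on 6 arrays (grey circles) and without shLuc replicate 3 (orange diamonds). Ly6a lies at -4.17 and -4.64, and Ly6c1/Ly6c2 moves from -0.88 to -1.65, where its interval no longer spans 0; that of Ly6f, at -0.61 there, does not span 0 either but its adjusted p is 0.22.

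The plot of changes with and without shLuc replicate 3 sets the 9 probe sets side by side. At an unadjusted limma p under 0.01 and a fold change over 1.5, the thresholds stated for the study, Ly6a was the 1 member probe set lower and 0 of the other 8 passed in either direction, while 1.33% of all probe sets passed as lower and 0.5% as higher. Ly6a was also the only member with all shSca-1 arrays below all shLuc arrays, a separation seen in 9.81% of all probe sets. At an adjusted limma p under 0.05, 0 members and 0 of the 45037 probe sets passed on 6 arrays, where 4170 had an unadjusted p under 0.05. The methods' t-test gave 4 probe sets after adjustment. Without shLuc replicate 3, 2 of the 9 passed an adjusted p under 0.05 as lower, Ly6a and Ly6c1/Ly6c2, and 0 as higher, against 1.92% and 0.842% of all probe sets. The median log2 fold change of the 9 was 0.07 beside -0.03 over all probe sets, and -0.24 beside -0.04 without that array.

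The brighter members shared low values on shLuc replicate 3. Of the 6 member probe sets at 64 or more on both other shLuc arrays, all 6 were below 0.5 times both there, namely Ly6a, Ly6c1/Ly6c2, Ly6d, Ly6f and both Ly6e probe sets. Over all probe sets the share was 8.17%, or 1472 of 18025. Ly6i, which missed the limit of 64 narrowly, and the brighter Ly6k probe set were instead highest of the shLuc arrays there. By the same rule, no member at 64 or more was below 0.5 times the 2 other arrays of its group on any of the other 5 arrays, where the share over all probe sets was between 0.017% and 0.553%. Luminal markers were high on the same array and the sum of the basal markers was low, as given above. The part of luminal or basal cells in the low Ly6 values was not tested.

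Since Ly6a and Ly6e were low together on shLuc replicate 3, the members were also read against each other on the same array. The log2 difference of Ly6a from the bright Ly6e probe set was 0.12, 0.05 and 0.04 on the shLuc arrays and -4.48, -4.43 and -4.56 on the shSca-1 arrays. On this scale shLuc replicate 3 lay beside the other shLuc arrays. The SD was 0.046 within shLuc and 0.065 within shSca-1 (n = 3 each), and the change was -4.56 (-4.57 without that array). Ly6e was read because it was low there too, so the agreement follows in part from that choice. Against the other member probe sets shLuc replicate 3 stood apart. For those, the SD of the difference within shLuc ran from 0.28 (dimmer Ly6e) to 1.08 (brighter Ly6k). Such a difference compares 2 probe sets, so only its shift between arrays can be read and not its level. The change in the difference of Ly6a from each of the other 8 probe sets ranged from -5.53 (Ly6d) to -3.29 (Ly6c1/Ly6c2). In all 8 the groups did not overlap, and the exact permutation test gave its smallest p of 0.1 for each (adjusted p = 0.1 over the 8, two-sided). By the values on each array, Ly6a thus changed more than Ly6e, Ly6c1/Ly6c2 and Ly6d, in a design too small for the permutation test to pass 0.05. For the dim Ly6f, Ly6i and Ly6k the comparison says less, since background limits how far they can fall. Values under 1 were set to 1. The dimmer Ly6k probe set, at 13.2 or less on shLuc arrays, could not have fallen as far as Ly6a.

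**Figure D3:**
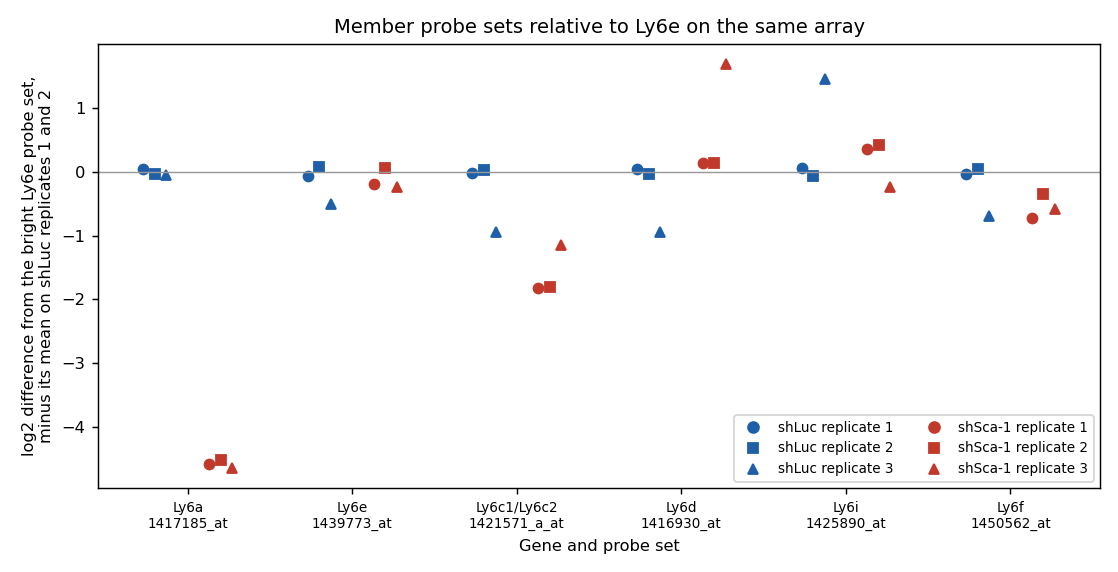
log2 difference of 6 member probe sets from the bright Ly6e probe set on the same array, minus the mean of that difference on shLuc replicates 1 and 2, with blue control and red knockdown arrays. Ly6a has 3 tight shLuc points near 0 and 3 tight shSca-1 points, a change of -4.56, while Ly6c1/Ly6c2 changed by -1.27 with a wider spread; the 2 Ly6k probe sets, both dim, are not drawn.

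The plot relative to Ly6e also shows Ly6c1/Ly6c2 below its shLuc values on all 3 shSca-1 arrays. This reading was chosen after the values were seen and has no test. Its log2 difference from Ly6e was -2.63, -2.58 and -3.55 on the shLuc arrays and -4.43, -4.41 and -3.75 on the shSca-1 arrays. shLuc replicate 3 and shSca-1 replicate 3 were the nearest to each other, and the groups did not overlap. This separation depends on the reference chosen. Ly6e was itself low on shLuc replicate 3, and by Ly6c1/Ly6c2 intensity alone the groups overlapped. The change of Ly6c1/Ly6c2 relative to Ly6e was -1.27, and -1.59 without shLuc replicate 3. For Ly6d the same difference was -5.65, -5.73 and -6.64 against -5.56, -5.55 and -4.01, higher on every shSca-1 array but close to the shLuc values on 2 of them. The groups overlapped for Ly6f, Ly6i, both Ly6k probe sets and the dimmer Ly6e probe set.

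In the wider Ly6/uPAR family no gene passed a threshold on 6 arrays. Of 38 further family genes named, 26 had a probe set assigned to 1 gene alone, and in limma 0 of them passed the study's thresholds and 0 had an unadjusted p under 0.05. Over all probe sets 1.33% were lower and 0.5% higher past those thresholds and 9.26% had an unadjusted p under 0.05, so few calls among 26 genes lie near the background. Their median log2 fold change was -0.14, with 11 of 26 positive. The 3 with the smallest p were dim. Gpihbp1, which carries lipoprotein lipase to the capillary lumen, was 27.2, 30.4 and 29.4 on shLuc arrays and 23.3, 12.1 and 21.8 on shSca-1 arrays, a log2 fold change of -0.66 (adjusted p = 0.61 from limma). The germ cell genes Tex101 and Spaca4 had values of -1.29 and -1.33 (adjusted p = 0.65 and 0.67 from limma) and never exceeded 11.6. Plaur, which encodes the urokinase receptor, was bright and flat at 0.07 (95% interval -0.25 to 0.39, adjusted p = 0.90 from limma). Cd59a, an inhibitor of complement lysis, had a log2 fold change of -0.26 (adjusted p = 0.73 from limma).

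Without shLuc replicate 3, 1 of the 26 family genes passed the study's thresholds, Lypd6b, where 2.61% of all probe sets passed as lower and 0.953% as higher. It was 251, 213 and 23.9 on the shLuc arrays and 88.8, 92.8 and 77.7 on the shSca-1 arrays, so the single low shLuc array brought its groups to overlap, as for Ly6c. The log2 fold change was -0.33 on 6 arrays, with a limma adjusted p of 0.93, and -1.42 with that array left out, with one of 0.0076. Its close relative Lypd6, known to enhance Wnt signaling, was 211, 184 and 22.1 against 139, 163 and 51.3 and did not pass (-0.91, adjusted p = 0.37 from limma without shLuc replicate 3). With the 2 of them, 2 of 7 family genes at 64 or more on the other shLuc arrays were below 0.5 times both on shLuc replicate 3, against 8.17% of all probe sets.

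Genes that make the GPI anchor or mark lipid rafts were read because most Ly6 proteins depend on both. Of 36 measured of 38 named, 19 had a positive log2 fold change, the median was 0.01 and 6 had an unadjusted limma p under 0.05, against 9.26% of all probe sets. Flot1, which encodes flotillin-1, a raft scaffold protein, was the 1 gene past the study's thresholds, which 1.33% of all probe sets passed as lower and 0.5% as higher. Its intensity was 456, 413 and 465 on the shLuc arrays and 206, 275 and 250 on the shSca-1 arrays. The groups did not overlap, and shLuc replicate 3 lay with the other shLuc arrays. The log2 fold change was -0.88 with a standard error of 0.14 (limma adjusted p = 0.14), and -0.84 with that array left out (limma adjusted p = 0.025). Its partner Flot2 was 1300, 1423 and 739 against 953, 968 and 929, and passed an adjusted p under 0.05 only with that array left out (-0.52, adjusted p = 0.017 from limma, against -0.22 on 6 arrays). Of the anchor enzymes, Pigp, a subunit of the transferase that starts the anchor, had a log2 fold change of -0.42 and Pigg, which adds ethanolamine phosphate to it, one of -0.72 (adjusted p = 0.44 and 0.45 from limma). Piga, the catalytic subunit of the same first step as Pigp, was 506, 513 and 240 on shLuc arrays and 591, 671 and 717 on shSca-1 arrays, with a log2 fold change of 0.73 (adjusted p = 0.52 from limma). It was chosen for its role after its values were seen.

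Genes beside Ly6a on the chromosome were read to see whether the lower signal extended along the cluster. The 25 neighbours with a probe set of their own comprised 5 that lie between the outermost members (Ly6g6g, Cyp11b1, Cyp11b2, Ly6m and Ly6g2) and 10 on each side, in the order of the RefSeq gene table. In limma 0 of the 25 passed the study's thresholds in either direction and 0 had an unadjusted p under 0.05 on 6 arrays, and 0 passed the thresholds without shLuc replicate 3. The background shares were those given for the family, so 0 calls among 25 genes lie near them. Their median log2 fold change was -0.10. The nearest gene with a probe set of its own is Ly6i on one side of Ly6a and Ly6g2 on the other. Ly6c1 and Ly6c2 were measured only by the probe set they share, and Ly6g has none listed. Ly6g2 was dim, between 1.44 and 17.2, with a log2 fold change of 1.12 (adjusted p = 0.75 from limma), which vanished when shLuc replicate 3 was left out. After Gpihbp1, the neighbours with the smallest p were 9030619P08Rik (-1.10, adjusted p = 0.66 from limma) and Gsdmd. Gsdmd encodes gasdermin D, which forms the pores of pyroptosis. It was 429, 437 and 129 on the shLuc arrays and 437, 434 and 605 on the shSca-1 arrays, with a log2 fold change of 0.75 (adjusted p = 0.68 from limma). It was the 1 of 7 neighbours at 64 or more on the other shLuc arrays that lay below 0.5 times both on shLuc replicate 3, where 8.17% of all probe sets did. All 7 lie outside the outermost members, since none of the 5 genes between them reached 64 on both other shLuc arrays.

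**Figure D4:**
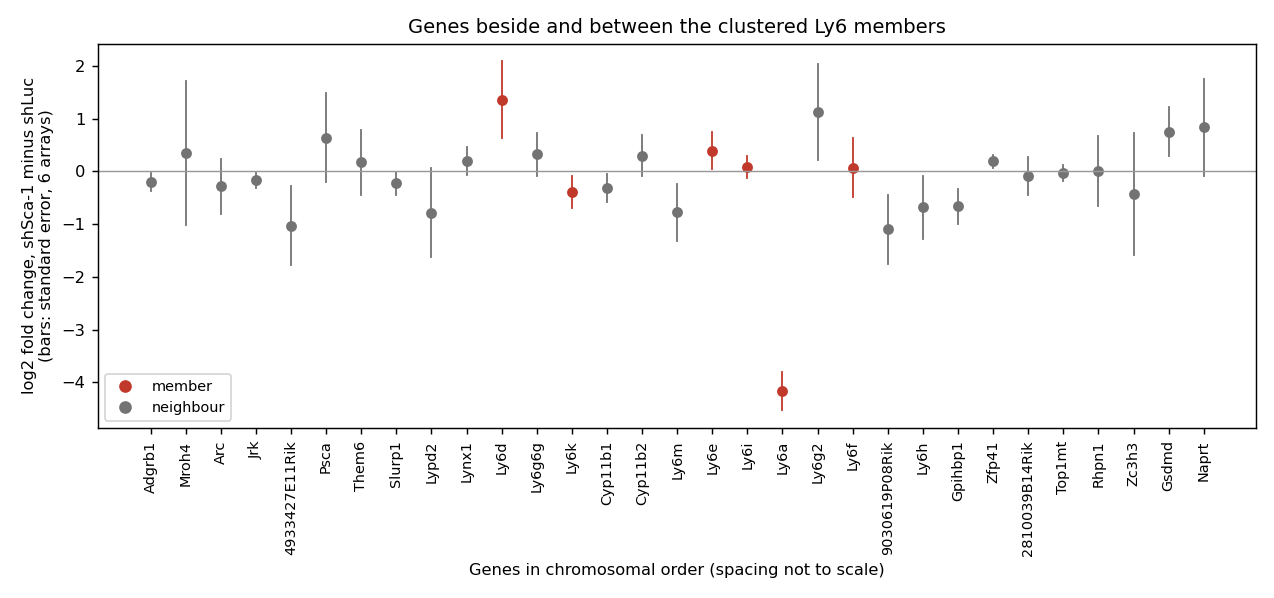
Change on the log2 scale, knockdown minus control, over 6 arrays (bars are limma standard errors) of the clustered Ly6 members with a probe set of their own (red, the brightest probe set of each) and of 25 neighbouring genes (grey), in chromosomal order with spacing not to scale. Ly6a lies at -4.17, and all the other genes lie between -1.10 and 1.36; Ly6c1 and Ly6c2, which share a probe set, are not drawn.

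The plot in chromosomal order shows Ly6a alone at a change of that size, between Ly6i (0.09) and Ly6g2 (1.12). The 5 neighbours between the outermost members were at 30.0 or less on the shLuc arrays. Genes so dim could hardly show a fall as large as that of Ly6a, so an extension of the loss to them cannot be read. Ly6e, about as bright as Ly6a on the shLuc arrays, did not follow it. The genes whose profile over the 6 arrays was most like that of Ly6a were found by the root mean square difference of centred log2 values, as a description with no test. The first 5 were Aox3 (0.71), Cpa1 (0.73), Krt15 (0.74), Tmem102 (0.85) and Mmrn2 (0.86). All but Tmem102 were dim, with a highest intensity of 17.2, 11.8, 58.8 and 16.2 respectively. Tmem102, a transmembrane protein gene, was 252, 283 and 107 on the shLuc arrays and 34.6, 45.7 and 23.7 on the shSca-1 arrays, so it shared with Ly6a both the separation of the groups and a lower value on shLuc replicate 3. The ranking took only probe sets with 1 gene symbol, so the probe set shared by Ly6c1 and Ly6c2 could not appear in it. None of the other clustered Ly6 members, and none of the family genes named, was among these 5.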

How the data were processed

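Total RNA of 3 shLuc and 3 shSca-1 samples of Wnt1-YL cells was hybridised to Affymetrix mouse arrays. The authors made the deposited intensity values with dChip (PM-MM model, invariant set normalization), and its version is not given in the sources used here. The model subtracts mismatch signal, which can leave dim probe sets at or near 0. No column of the authors' own comparisons was used; the published list of changed genes served only to name the Ly6a probe set, which the annotation table does not list. Of 45101 probe sets, 64 controls were left out and 45037 tested; 34946 carry 1 gene symbol (with Ly6a), 932 several and 9159 none.

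Values under 1 were set to 1 and log2 values fitted with limma 3.58.1 in R 4.3.3 (lmFit, eBayes with trend), adjusted by Benjamini-Hochberg over all tested probe sets. The study's thresholds are p under 0.01 and fold change over 1.5. A fold is a ratio of geometric means. Differences between probe sets were tested by exact permutation over arrays. In the lists, a gene is its brightest probe set assigned to it alone. All member probe sets were named, and of each list the 3 genes with the smallest p and those past the study's thresholds, with others named for their role; of genes like Ly6a, the 5 nearest. The members and lists were chosen with earlier results of these data known. Promoter windows came from RefSeq (GRCm38.p6) and were aligned with Biopython 1.88. The files name no genome build, so gene order is given without coordinates. Arrays of the same replicate number did not share their deviations from the group means (correlations -0.04, -0.02 and -0.03). With 3 arrays of each group this cannot exclude a shared culture or batch, so any pairing is unknown. Normalization, centring, floors, filter, variance model, test, replicate block and each left-out array were varied. The fit was tested on simulated data with the spreads of these arrays. Of log2 changes of 1 set in probe sets above 64, 28% reached an adjusted limma p under 0.05 on 6 arrays. Without shLuc replicate 3 it was 43%. At the study's thresholds 84% and 92% were recovered. A high adjusted p therefore does not exclude a change of that size.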

Additional observations from a re-analysis of the deposited data

How the results depend on the processing

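Ly6a kept its direction in all 16 alternative settings, from -4.64 to -3.92, with an adjusted p between 5.2e-07 and 0.50. It passed 0.05 with arrays centred on their medians (-4.11, adjusted p = 0.049 from limma), with dim probe sets under the 40th percentile dropped (-4.17, adjusted p = 0.041), with robust variance (-4.17, adjusted p = 0.046) and without shLuc replicate 3 (-4.64), and leaving out 1 array at a time gave -4.64 to -3.92. With the replicate number as a block it was -4.17 (adjusted p = 0.21 from limma). Whether the shared number pairs the arrays is unknown. The differences of Ly6a from the other 8 probe sets kept their direction in 8 settings each, in which overlap of the groups was not checked.

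Ly6c1/Ly6c2 was negative in all 16 settings (-1.65 to -0.48) and passed in 1, without shLuc replicate 3. Ly6d was positive in all 16 (0.59 to 1.75). Ly6e, Ly6i and Ly6f changed direction in at least 1 setting. Both Ly6k probe sets were negative or 0 in every setting that gave a value (-0.64 to 0 and -0.85 to 0). Leaving out 1 array at a time gave -0.064 to 0.62 for the bright and -0.19 to 0.78 for the dim Ly6e probe set, -0.030 to 0.25 for Ly6i and -0.61 to 0.43 for Ly6f, with the low end without shLuc replicate 3 for Ly6e and Ly6f and without shSca-1 replicate 2 for Ly6i. Without shSca-1 replicate 2, Ly6f was -0.032. Ly6f was also negative with intensities under 64 set to 64 (-0.11) and from arithmetic means (-0.18). The cause was not tested.

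Of members other than Ly6a, 0 to 1 passed the study's thresholds when 1 array was left out, and 0 in the other settings. Family genes past those thresholds numbered 0 to 1 on leaving out 1 array and 1 with the replicate block (Lypd3). The GPI and neighbour counts did not change in 16 settings each. Probe sets at an adjusted p under 0.05 numbered 0 on 6 arrays, 5 after quantile normalization, 19 with centring, 24 and 7 with floors at 16 and 64, 32 with the filter, 56 with robust variance, 4 by the methods' t-test, and 0 to 1244 when 1 array was left out. Fewer probe sets were tested with the filter, which dropped the dimmer Ly6k probe set. Centring or quantile normalization moved the median of all probe sets from -0.03 to 0.03 and 0.02. Dim members (Ly6k, Ly6i, Ly6f) are limited by background.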

Other observations

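Ly6a, Ly6c and Ly6e are known interferon-inducible genes, so classical interferon-stimulated genes were read on shLuc replicate 3. A list of 18 such genes was written after the values were seen, and 16 had a probe set of their own. Of these, 14 were highest on shLuc replicate 3, 10 were over 2 times every other array there, and 0 were lowest there. Of all probe sets, 26.2% were highest on that array and 3.72% over 2 times every other array, and because the list was written with the values in view these shares are given as a description only. Rtp4, an interferon-induced receptor chaperone, was 1118 on that array and between 5.22 and 14.5 on the other 5. Oas1a, which senses double-stranded RNA, was 624 against 27.3 to 40.9, and Usp18, a brake on interferon signaling, was 398 against 6.34 to 15.8. Bst2, which encodes tetherin, a GPI-anchored surface protein, was 946 against 202 to 269. On the same array Ly6a was 2843, Ly6c1/Ly6c2 236 and the bright Ly6e probe set 2768, each the lowest of the shLuc arrays. The part of interferon in these values was not tested.

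shSca-1 replicate 3 also differed from its group for a pair of members. Ly6d was 447 there against 135 and 144, and Ly6c1/Ly6c2 was 535 against 297 and 318, while Ly6a was 306 against 285 and 314. Of all probe sets at 64 or more on the other shSca-1 arrays, 0.728% were over 2 times both on this array (129 of 17725), Ly6d among them.

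Beyond the 5 genes most like Ly6a by the stated measure, brighter genes of similar profile were picked after the values were seen. Arrdc4 was 241, 218 and 312 on the shLuc arrays and 23.9, 25.4 and 50.0 on the shSca-1 arrays. Txnip, its relative in the arrestin family, was 1190, 1048 and 302 against 50.0, 125 and 204. Both encode arrestin-domain proteins known to respond to glucose supply. Selenop, which encodes the selenium carrier selenoprotein P, was 593, 526 and 157 against 60.9, 88.6 and 102.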
